A study of Mus musculus with 2 samples.

Results

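The clustered replication-dependent histone genes supply the histones that package DNA newly copied in S phase. They were taken as the protein-coding genes of GENCODE release M21 whose symbols start with Hist1h, Hist2h, Hist3h or Hist4h, and there were 67 of them among 21938 protein-coding genes on chromosomes 1 to 19, X and Y. By the histone they encode, 6 were H1 genes, 18 were H2A genes, 18 were H2B genes, 12 were H3 genes and 13 were H4 genes. The Hist1 cluster on chromosome 13 held 54, the Hist2 cluster on chromosome 3 held 10, the Hist3 cluster on chromosome 11 held 2, and Hist4h4 stood alone on chromosome 6.

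DNase-seq cuts open chromatin in nuclei with the nuclease DNase I and reads the released ends, so a peak marks DNA that was accessible in the tissue. The samples were midbrain tissue of newborn B6NCrl mice, aged 0 days, healthy and with both sexes pooled, and formed a single group of 2 biological replicates with no treated or mutant counterpart. Both trace to a single pooled donor entry in the labels, and nothing there says that the animals were different. The design therefore allows no comparison of conditions, and each count is set beside the same count over all protein-coding genes, with no test. In bulk tissue, a weak peak from all cells and a strong peak from few cells cannot be told apart.

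Core histones H2A, H2B, H3 and H4 form the nucleosome, and the linker histone H1 binds where DNA enters and leaves it. The genes studied here are short, mostly lack introns, and give mRNAs that end in a stem-loop in place of a poly(A) tail. Their transcription rises as cells enter S phase under the coactivator NPAT, and H2A and H2B genes often sit head to head with their promoters between them. A few members work in male germ cells: Hist1h1t encodes the testis linker histone H1t, and the pair Hist1h2ba and Hist1h2aa encodes testis forms of H2B and H2A. At birth the midbrain holds many neurons that have left the cell cycle and fewer dividing cells.

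The values come from 2 libraries that differ in yield. Replicate 1 had 228440 deposited peaks with a median signal of 44, and replicate 2 had 122838 with a median of 18. Sequencing depth is unknown, and signals were not scaled between libraries, so each signal below is read only against others of its own library, replicate 1 always first. The signal is a whole number that the authors gave each peak of 150 bp without a definition in the sources used here. Of marker genes looked up, 6 of 6 for neurons and 3 of 6 for midbrain (En1, En2 and Otx2) had a promoter peak in both libraries. The share over all protein-coding genes was 61.0%, so the midbrain count by itself does not identify the tissue. Pax7 had a peak in replicate 1 alone, Foxa2 and Lmx1b had none, and 0 of 4 liver markers had one.

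A promoter was called open when a merged region with a peak of each library lay within 500 bp of an annotated transcription start site (TSS). The sequences of the members on which the results turn are printed here before their values. They are RefSeq promoters of assembly GRCm38.p6 (the assembly also named mm10), from 250 bases before the start to 50 after, on the strand of the gene, and such promoters were found for 62 of the 67 members. Capitals mark the letters searched on both strands: TATAAA (the TATA box), CCAAT (NF-Y site), ATTTGCAT (octamer), TTTNNCGC (E2F site), AAACACA (H1 box), GGTCCG (core of the H4 site II) and TGACGTCA (CRE). The E2F letters can overlap a neighbouring match, and such matches run together in the capitals.

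The first sequences are from the open members with the highest mean rank of signal in their histone type. They show a linker histone promoter on the minus strand at chr13:23622509-23622808, the DNA between an H2A and an H2B gene on the plus strand at chr13:23574131-23574430, an H3 promoter on the minus strand at chr13:23562336-23562635, and an H4 promoter on the minus strand at chr13:23698409-23698708. Hist2h4 ranked above Hist1h4c among H4 genes but had no entry among the promoters.
Hist1h1e: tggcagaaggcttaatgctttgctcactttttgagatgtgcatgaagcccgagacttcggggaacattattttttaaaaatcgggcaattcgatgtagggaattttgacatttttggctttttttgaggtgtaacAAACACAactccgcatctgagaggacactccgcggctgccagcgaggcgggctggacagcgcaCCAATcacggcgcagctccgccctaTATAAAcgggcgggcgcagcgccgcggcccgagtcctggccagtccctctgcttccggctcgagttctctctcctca
Hist1h2ad: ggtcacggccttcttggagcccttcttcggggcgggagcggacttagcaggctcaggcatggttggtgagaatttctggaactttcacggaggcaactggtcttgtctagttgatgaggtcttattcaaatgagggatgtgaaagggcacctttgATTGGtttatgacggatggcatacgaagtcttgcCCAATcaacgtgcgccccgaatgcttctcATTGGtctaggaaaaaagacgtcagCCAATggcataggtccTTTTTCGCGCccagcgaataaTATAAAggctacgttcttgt
Hist1h3e: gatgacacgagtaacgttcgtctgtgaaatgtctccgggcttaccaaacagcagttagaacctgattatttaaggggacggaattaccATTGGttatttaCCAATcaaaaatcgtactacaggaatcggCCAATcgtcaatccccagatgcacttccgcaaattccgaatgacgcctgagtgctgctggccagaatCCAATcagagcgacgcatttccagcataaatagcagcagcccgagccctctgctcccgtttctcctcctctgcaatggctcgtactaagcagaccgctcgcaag
Hist1h4c: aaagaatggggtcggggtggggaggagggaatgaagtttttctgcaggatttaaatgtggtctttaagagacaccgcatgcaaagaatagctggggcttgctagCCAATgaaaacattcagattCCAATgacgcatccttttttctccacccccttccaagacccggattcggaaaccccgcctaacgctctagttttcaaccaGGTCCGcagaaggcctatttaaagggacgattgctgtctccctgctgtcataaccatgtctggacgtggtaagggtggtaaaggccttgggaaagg

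The next are germ cell members without a peak. Hist1h1t is on the plus strand at chr13:23695561-23695860, and Hist1h2ba on the minus strand at chr13:23934107-23934406 is head to head with Hist1h2aa.
Hist1h1t: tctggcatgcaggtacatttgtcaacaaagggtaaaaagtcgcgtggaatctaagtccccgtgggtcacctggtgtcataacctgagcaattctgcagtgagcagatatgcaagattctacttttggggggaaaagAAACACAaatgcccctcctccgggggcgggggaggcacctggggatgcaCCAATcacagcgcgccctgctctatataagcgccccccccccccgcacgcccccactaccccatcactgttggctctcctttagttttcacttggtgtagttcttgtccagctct
Hist1h2ba: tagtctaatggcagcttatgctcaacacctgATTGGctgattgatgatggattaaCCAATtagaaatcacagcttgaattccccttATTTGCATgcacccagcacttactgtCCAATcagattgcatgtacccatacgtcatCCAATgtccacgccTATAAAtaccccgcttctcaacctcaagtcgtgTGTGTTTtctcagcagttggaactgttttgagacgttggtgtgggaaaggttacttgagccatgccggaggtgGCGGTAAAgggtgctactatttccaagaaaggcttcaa

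The last are members without a peak whose promoters occur in near-identical copies: Hist1h2bq on the minus strand at chr13:21810150-21810449, Hist1h4m on the plus strand at chr13:21811496-21811795, and Hist2h3c1 on the plus strand at chr3:96246435-96246734.
Hist1h2bq: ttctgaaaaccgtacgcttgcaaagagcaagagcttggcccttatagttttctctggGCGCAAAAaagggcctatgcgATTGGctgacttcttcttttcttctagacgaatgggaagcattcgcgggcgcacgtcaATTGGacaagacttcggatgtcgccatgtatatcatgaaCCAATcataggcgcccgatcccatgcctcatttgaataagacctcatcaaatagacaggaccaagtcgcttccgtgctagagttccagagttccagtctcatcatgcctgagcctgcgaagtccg
Hist1h4m: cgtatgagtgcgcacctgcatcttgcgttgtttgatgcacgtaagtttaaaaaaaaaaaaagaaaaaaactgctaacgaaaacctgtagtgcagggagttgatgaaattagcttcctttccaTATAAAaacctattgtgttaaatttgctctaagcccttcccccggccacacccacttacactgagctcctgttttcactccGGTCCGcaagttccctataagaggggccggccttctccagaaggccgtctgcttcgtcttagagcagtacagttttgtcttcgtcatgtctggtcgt
Hist2h3c1: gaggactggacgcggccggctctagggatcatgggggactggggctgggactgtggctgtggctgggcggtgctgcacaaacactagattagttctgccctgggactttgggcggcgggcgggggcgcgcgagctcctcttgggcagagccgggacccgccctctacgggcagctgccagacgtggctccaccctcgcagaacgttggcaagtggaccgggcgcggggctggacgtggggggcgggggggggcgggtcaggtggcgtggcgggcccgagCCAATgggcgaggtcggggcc

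Most clustered histone genes had open promoters in the newborn midbrain. Of the 67 members, 54 (80.6%) were open in both libraries, against 61.0% of all protein-coding genes. The genes were not matched for CpG, and the members' median ratio of observed to expected CpG was 0.75, against 0.60. Over genes with a RefSeq promoter, the open share rose from 7.43% in the lowest of 10 classes by this ratio to 97.4% in the highest. In replicate 1 alone 55 had a promoter peak, against 68.9% of genes, and in replicate 2 alone 54 had one, against 62.6%. Hotspots are wider intervals of enriched cutting that the authors called separately, and a merged hotspot with both libraries reached within 500 bp of 55 members, against 62.1% of genes. In Hist1h1b, which is among the 55, only the part from replicate 1 lay that near. The hotspots of 52 members were in the strongest class of q value in both libraries, against 50% of genes. The count falls to 51 when the window is narrowed to 100 bp, where Hist1h3f, Hist2h2aa1 and Hist2h2aa2 are lost.

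The share of open promoters ran from 83.3% to 84.6% in the 4 core histone types and was 50% in the linker histone H1. Open promoters were found at 15 of 18 H2A genes, 15 of 18 H2B genes, 10 of 12 H3 genes, 11 of 13 H4 genes and 3 of 6 H1 genes. By cluster, 43 of 54 Hist1 genes, 8 of 10 Hist2 genes, both Hist3 genes and Hist4h4 were open. Within Hist1 the members fall into 4 blocks, divided where neighbours lie over 100 kb apart. The first (chr13:21715763-21837530) had 11 of 18 open, the second (chr13:22035164-22043676) 5 of 5, the third (chr13:23531050-23764406) 27 of 29, and the fourth (chr13:23933773-23934851), which holds only the germ cell pair, 0 of 2.

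**Figure D1:**
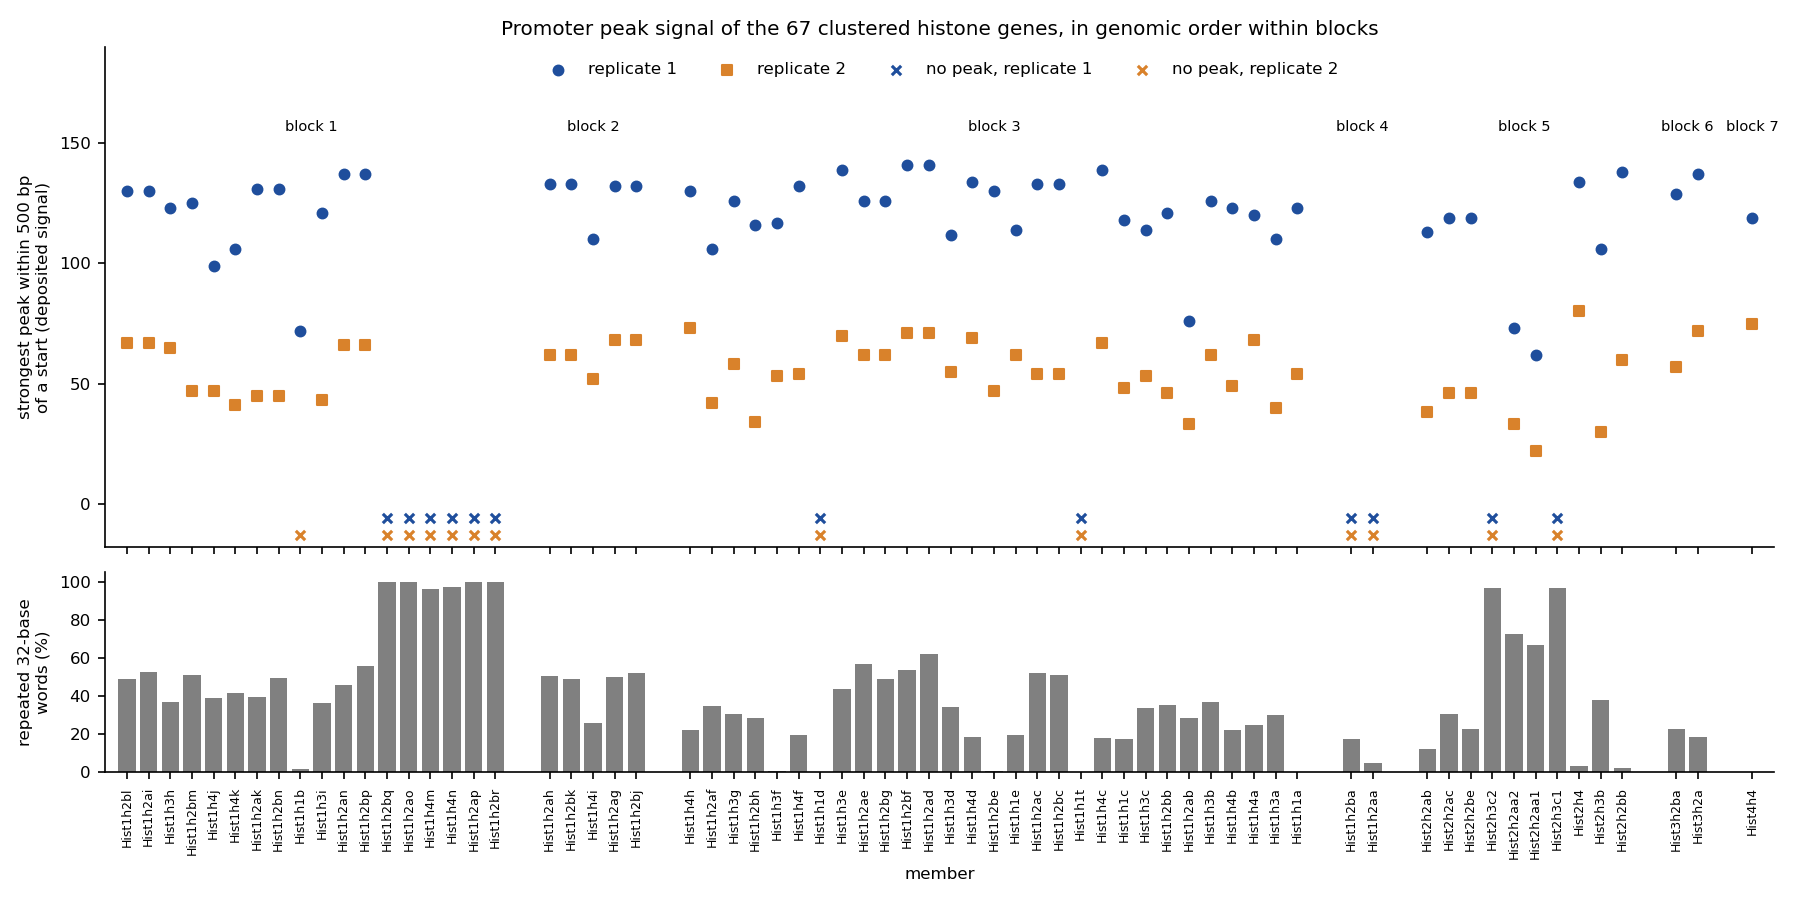
Strongest promoter signal of each of the 67 members in each library (upper panel, points, deposited signal, crosses for no peak) and the percentage of repeated 32-base words around the TSS (lower panel, bars), in genomic order within blocks. Open members run from 62 to 141 in replicate 1 and from 22 to 80 in replicate 2, and the bars at or above 95% all stand under members with no peak.

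The open members were of ordinary strength for open promoters. Their strongest promoter peaks had signals of 62 to 141 (median 126) in replicate 1 and of 22 to 80 (median 54.5) in replicate 2. Over all genes open in both libraries the medians were 119 and 55. Ranked among the protein-coding genes with a promoter peak in the same library, the median open member stood at percentile 67.7 in replicate 1 and 49.8 in replicate 2. No member lay above the 90th percentile in both, a place held by 5.60% of the genes open in both. Above the 50th percentile in both were 25 of the 54, against 46.8% of open genes. The libraries ordered the members alike in part, with a Spearman rho of 0.709 across the 54 genes, against 0.876 across 13377 open genes. Members that share a peak are not independent in this value.

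Linker histone H1 genes had the fewest open promoters and a narrow range of signal. The 3 open genes were Hist1h1a (123 and 54), Hist1h1e (114 and 62) and Hist1h1c (118 and 48), each encoding a somatic H1 subtype. Their medians of 118 and 54 corresponded to percentiles 54.2 and 49.0. The promoter peak of Hist1h1e (chr13:23622476-23622645) covers the part of its printed sequence next to the start. In Hist1h1b, another somatic subtype, a peak of signal 72 lay over the start in replicate 1 and none lay there in replicate 2.

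Whether Hist1h1d, also somatic, counts as open depends on the annotated start. It had no peak within 500 bp of its GENCODE start, which lies 1770 bp upstream of its RefSeq start. A region open in both libraries covered the RefSeq start (chr13:23554956-23555125, signals 100 and 33). With RefSeq starts in place of GENCODE starts, 55 members were open, against 55.1% of 20847 genes with a RefSeq match, and Hist1h1d was the member gained.

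H2A genes had the widest range of signals. The 15 open genes ran from 62 to 141 (median 130) in replicate 1 and from 22 to 72 (median 54) in replicate 2. The highest by mean percentile was Hist1h2ad (141 and 71, percentiles 95.4 and 81.9), followed by Hist3h2a (137 and 72), which lies in the small Hist3 cluster. The lowest was Hist2h2aa1 (62 and 22, percentiles 14.6 and 9.98). Its inverted copy Hist2h2aa2 (73 and 33) and the Hist1 gene Hist1h2ab (76 and 33) were also low. The peaks of Hist2h2aa1 and Hist2h2aa2 were centred at -306 and -315 bp from the start, and 66.7% and 72.7% of the 32-base words around these starts recur elsewhere in the genome. The other 12 open H2A genes were higher in replicate 1, at 106 or more.

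H2B genes had a narrower range of signal in replicate 1. Their 15 open promoters ran from 116 to 141 (median 130), and from 34 to 71 (median 57) in replicate 2. Hist1h2bf (141 and 71) was highest and shares its peak with Hist1h2ad. Hist2h2bb (138 and 60) had a peak of its own. The lowest was Hist1h2bh (116 and 34, percentiles 51.5 and 22.1), and the Hist3 gene Hist3h2ba stood between them (129 and 57).

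H3 genes were near the middle of all open genes. The 10 open genes ran from 106 to 139 (median 119, percentile 56.0) and from 30 to 70 (median 54, percentile 49.0). Hist1h3e was highest (139 and 70), and its peak (chr13:23562396-23562585) spans the 4 CCAAT matches of its printed promoter. The lowest was Hist2h3b (106 and 30). Hist1h3f (117 and 53) was the single open H3 gene whose strongest peak was centred well inside the gene, 339 bp past the start.

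H4 genes ranked higher in replicate 2 than the other types. The 11 open genes ran from 99 to 139 (median 123, percentile 62.4) in replicate 1 and from 41 to 80 (median 67, percentile 74.2) in replicate 2. Hist2h4 (134 and 80) was highest by mean percentile, followed by Hist1h4c (139 and 67), and Hist4h4, alone on its chromosome, had 119 and 75. The lowest were Hist1h4k (106 and 41) and Hist1h4j (99 and 47). The 2 libraries disagree on where H4 stands, since H2A and H2B had the higher median percentile in replicate 1 (74.95 for each of them), and the difference between types was not tested.

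**Figure D2:**
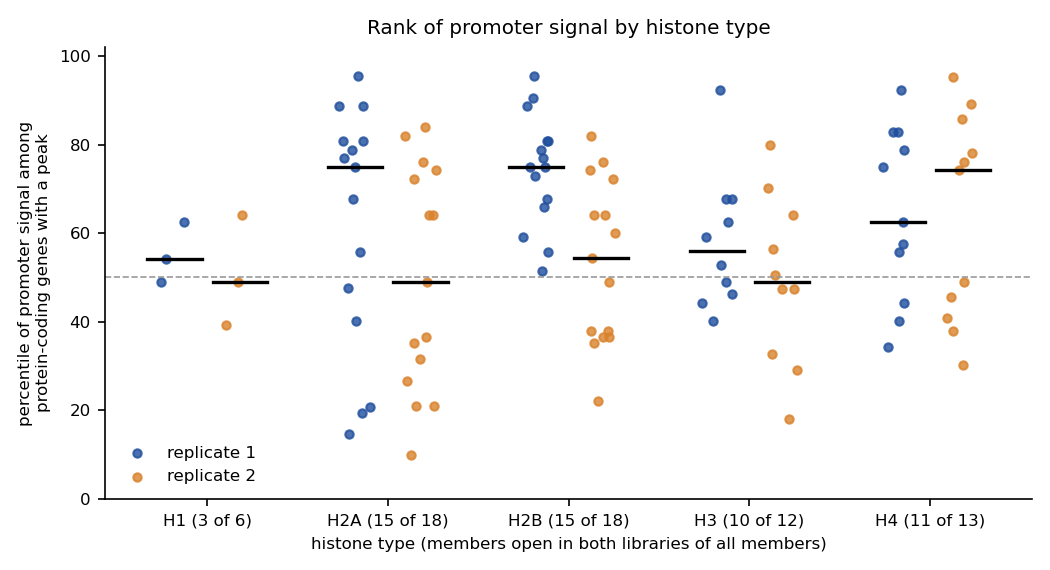
Percentile of the strongest promoter signal among protein-coding genes with a promoter peak in the same library (vertical axis), for open members of each histone type in replicate 1 and replicate 2 (points, with a bar at the median and a dashed line at 50). The medians of H2A and H2B are higher in replicate 1 than in replicate 2, and that of H4 is higher in replicate 2 (74.2) than in replicate 1 (62.4).

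The open DNA lay just upstream of the start. The centre of the strongest promoter peak was at a median of -89 bp from the TSS in both libraries, with quartiles of -130.5 and -54.8 bp in replicate 1 and -128 and -59.8 bp in replicate 2. Over all open genes the median was -39 bp in each library, with quartiles of -88 and -2.0 bp in replicate 1. The centre lay upstream in 51 of 54 members in each library, against 75.8% and 75.0% of open genes. These distances are from GENCODE starts. In many members the RefSeq start lies further upstream, as in Hist1h2ak and Hist1h2bl, and the centres were not recomputed from RefSeq starts. Counted from RefSeq starts, coverage by regions open in both libraries was highest at 60 bp upstream in members. Over all genes it was highest at 40 bp upstream (37.5%). These positions lie closer together than the medians of -89 and -39 bp, though the measure differs. At 60 bp upstream of the RefSeq start, 77.6% of members were covered by a region open in both libraries, against 35.8% of all genes. At 100 bp downstream of the start this fell to 1.49% of members and 12.5% of genes.

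**Figure D3:**
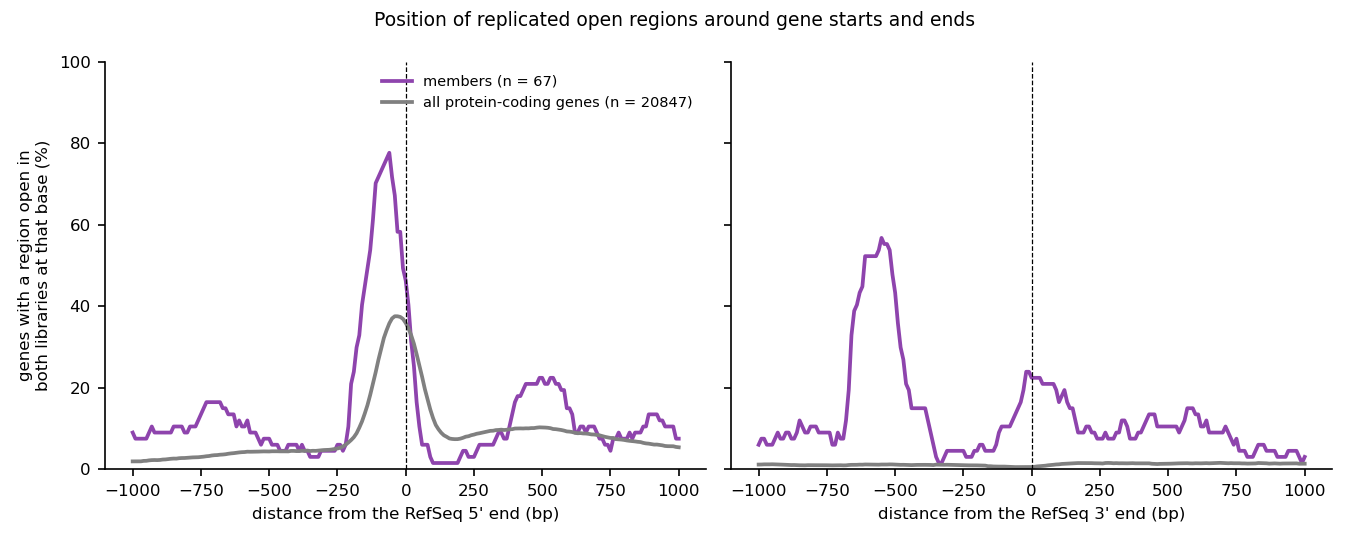
Percentage of genes covered by a region open in both libraries at each base (vertical axis) by distance from the RefSeq 5' end (left) and 3' end (right), for the 67 members and 20847 protein-coding genes. Members peak at 77.6% at 60 bp upstream of the start, and in the right panel the same promoters appear about 550 bp before the 3' end because the genes are short.

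Head to head H2A and H2B genes shared their open region. There were 12 such pairs with starts 176 to 306 bp apart (median 259.5 bp), which together hold 12 H2A and 12 H2B members. In 9 pairs a single region open in both libraries lay between the starts. The strongest was that of Hist1h2bf and Hist1h2ad, whose starts are 185 bp apart, at chr13:23574256-23574425, with signals of 141 and 71. This interval lies within the printed Hist1h2ad promoter and covers its 4 CCAAT matches. Next by replicate 1 was the pair of Hist1h2an and Hist1h2bp (137 and 66), and the lowest by replicate 1 was that of Hist2h2ac and Hist2h2be (119 and 46). An H2B and an H3 gene, Hist1h2bh and Hist1h3f, also shared a region (116 and 34) across 660 bp. In all, 68 regions lay at member promoters, 11 of them within 500 bp of 2 members, and 20 members shared a region.

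The 3 pairs without an open region were Hist1h2bq with Hist1h2ao, Hist1h2ap with Hist1h2br, and the germ cell pair Hist1h2ba with Hist1h2aa. The first 2 are copies of each other, and the third is unique sequence for the most part. They are described with the other members that were not open.

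Of the 13 members not open in both libraries, 8 lie in DNA that occurs more than once in the genome. These are Hist1h2bq, Hist1h2ao, Hist1h4m, Hist1h4n, Hist1h2ap and Hist1h2br at the end of the first Hist1 block, and Hist2h3c2 and Hist2h3c1 in the Hist2 cluster. Around their starts, 96.2% to 100% of all 32-base words recur elsewhere, a measure used here because reads from identical copies cannot be assigned to either copy. No other member reached 95%. Of the 649 protein-coding genes at or above 95%, 0.154% (1 gene) were open, and of these 8 members 0 were.

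The copies match almost base for base. The printed Hist1h2bq promoter matched that of Hist1h2br at 300 of 300 bases. Hist1h4m and Hist1h4n matched at 298 of 299 bases, Hist2h3c1 and Hist2h3c2 at 284 of 285, and Hist1h2ao and Hist1h2ap at 200 of 200 in the stretch their windows share. No peak and no hotspot of either library fell in the surrounding stretches of 1-kb bins with at least 90% repeated words, which were chr13:21797763-21820762 and chr13:21831763-21842762, and chr3:96238865-96239864 and chr3:96245865-96246864 of only 1 kb each. Just outside the short ones, replicate 1 alone had weak peaks toward the 3' ends of Hist2h3c2 (chr3:96238276-96238425, signal 29) and Hist2h3c1 (chr3:96247396-96247545, signal 31). A missing peak at these 8 members cannot be read as closed chromatin from these files, and the part of lost reads in it was not tested.

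Members with sequence repeated in part had peaks. Of the 20 members with at least 50% repeated words 12 were open, against 5.59% of 1521 genes. The other 8 are the copied members above, and some of the 12 share a peak, such as Hist1h2bf and Hist1h2ad. The 1521 genes likewise include the 649 at or above 95%, of which 0.154% were open, so neither share is of partly repeated sequence alone. The effect of repeated sequence on the calling of peaks was not tested. Of the 47 members under 50%, 42 were open, against 65.2% of 20417 genes. Hist1h2ad, the highest H2A gene, had 62.1% repeated words.

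**Figure D4:**
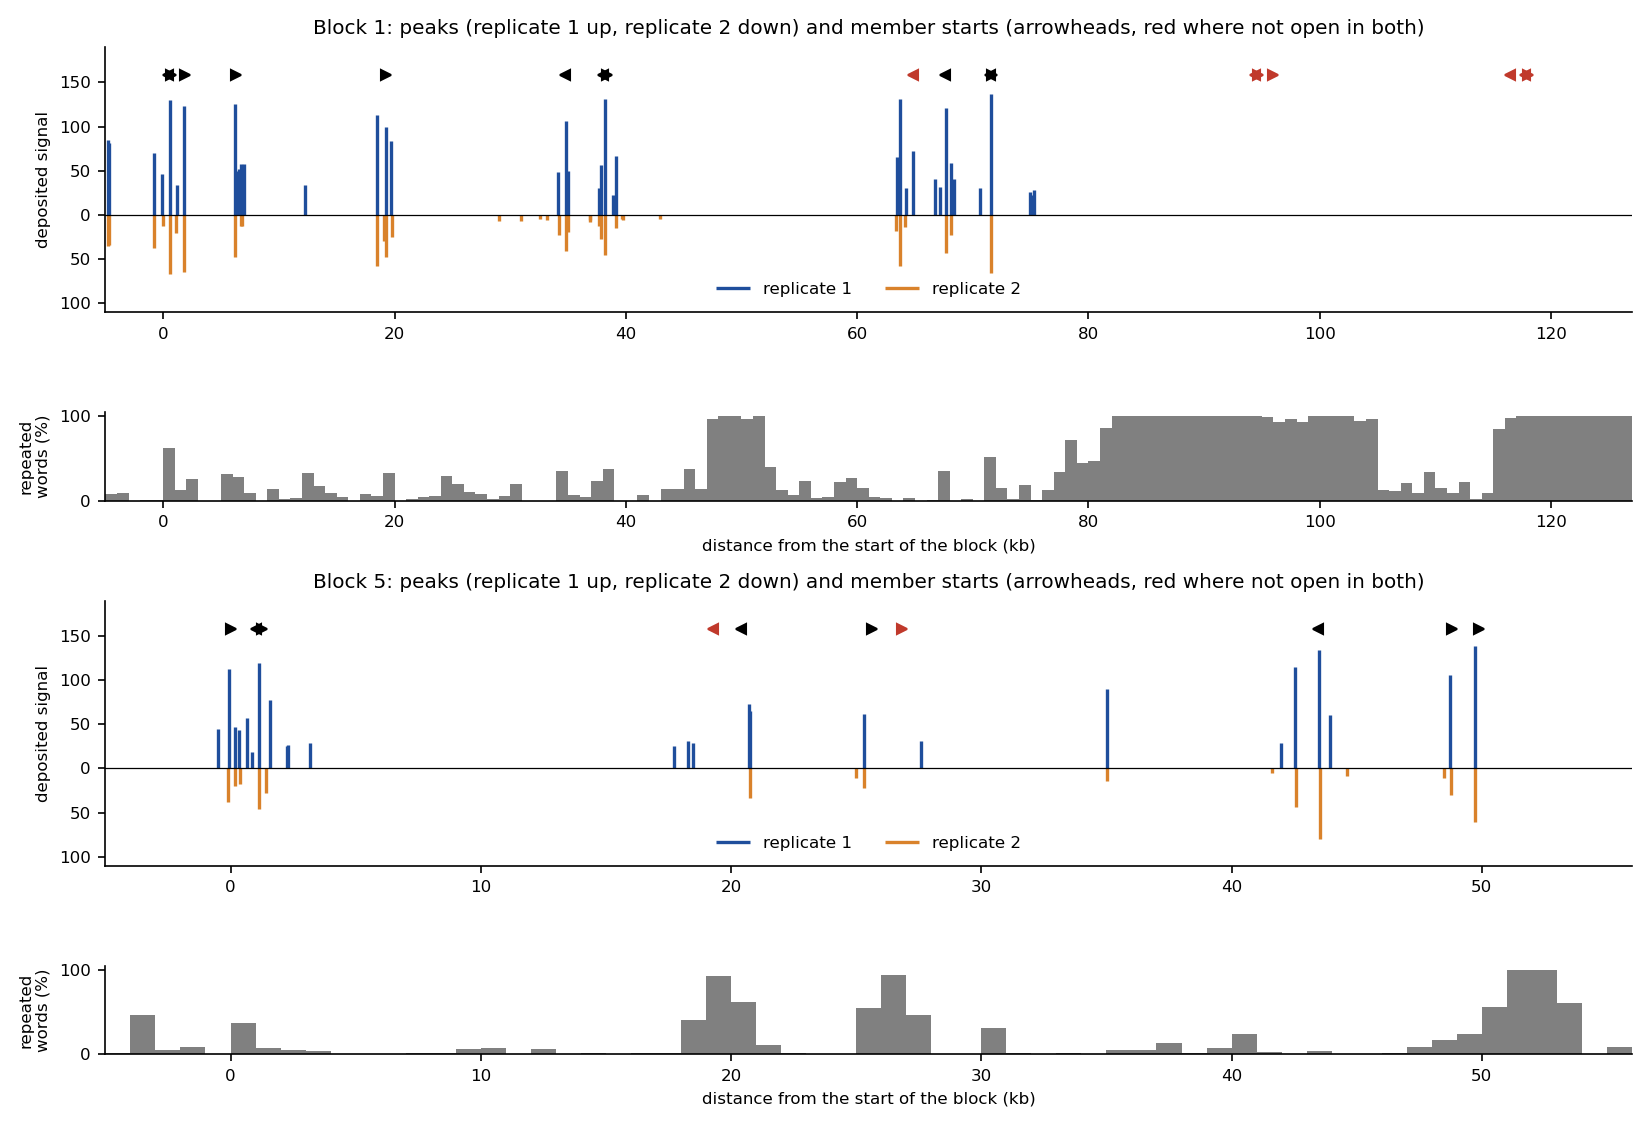
Peaks of replicate 1 (upward bars) and replicate 2 (downward bars, deposited signal) along the first Hist1 block and the Hist2 cluster, with member starts as arrowheads pointing in the direction of transcription (red where not open in both libraries) and the percentage of repeated 32-base words per 1-kb bin below. The 6 red members at the right of the first block lie where the bins are almost fully repeated and no peak was called, while the red member near 65 kb is Hist1h1b, which has a peak in replicate 1.

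The other 5 members not open in both libraries are Hist1h1b and Hist1h1d, described above, and the 3 germ cell members. Around the start of Hist1h1t 0.00% of words were repeated, around Hist1h2aa 4.95% and around Hist1h2ba 17.6%, so most words at these starts occur once in the genome, and none of them had a peak or a hotspot in either library. Hist1h1t lies between open neighbours, with Hist1h2bc (133 and 54) and Hist1h4c (139 and 67) beside it in the third block. As a comparison from outside the clusters, 1 of 7 testis germ cell markers had an open promoter, the RNA-binding protein gene Dazl (126 and 44). The share over all protein-coding genes was 61.0%.

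The letters searched were frequent in the members and differed by type. TATAAA was found in 35 of 62 promoters (56.5%), against 13.1% of 16696 promoters of the same length. A match on either strand anywhere in the promoter was counted. The 41 TATAAA matches in members lay at a median of -36 bp, with quartiles of -142 and -25 bp, so not all lie near the start. CCAAT, bound by NF-Y, was found in 53 (85.5%), against 39.2%, and it was present in every H1, H2A, H2B and H3 promoter in the table and in 3 of 12 H4 promoters. GGTCCG, part of the H4 element bound by HINFP, was found in 11 of 12 H4 promoters and in 2 others, against 10.9% of all promoters, at a median of -43 bp. The H1 box AAACACA was found in 5 of 6 H1 promoters and in 4 of other types, against 6.12%.

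The octamer bound by OCT1 was limited to H2A (7 of 18) and H2B (6 of 16) promoters among the members, against 1.70% of all promoters. E2F letters were found in 19 of 62 (30.6%), against 6.55%, and the CRE in 4 (6.45%), against 2.42%. CCAAT was in 42 of 49 open and 11 of 13 other promoters, and TATAAA in 29 of 49 and 6 of 13. E2F letters were in 13 of 49 open and 6 of 13 other promoters, the H1 box in 4 of 49 and 5 of 13, and the CRE in 4 of 49 and 0 of 13. These shares were not tested, and the histone types differ between open and other members. The promoters are not separate units. Those of head to head genes overlap, so the same site can be counted for both genes. The H1 box of Hist1h2aa and Hist1h2ba is such a site. Among the promoters with E2F letters that were not open, those of Hist1h2ao, Hist1h2ap, Hist1h2bq and Hist1h2br come from copied DNA. Hist1h1t, with no peak, holds CCAAT at -65 and AAACACA at -114, and the open Hist1h1e holds them at -52 and -115, counted from the start to the first base of the match.

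**Figure D5:**
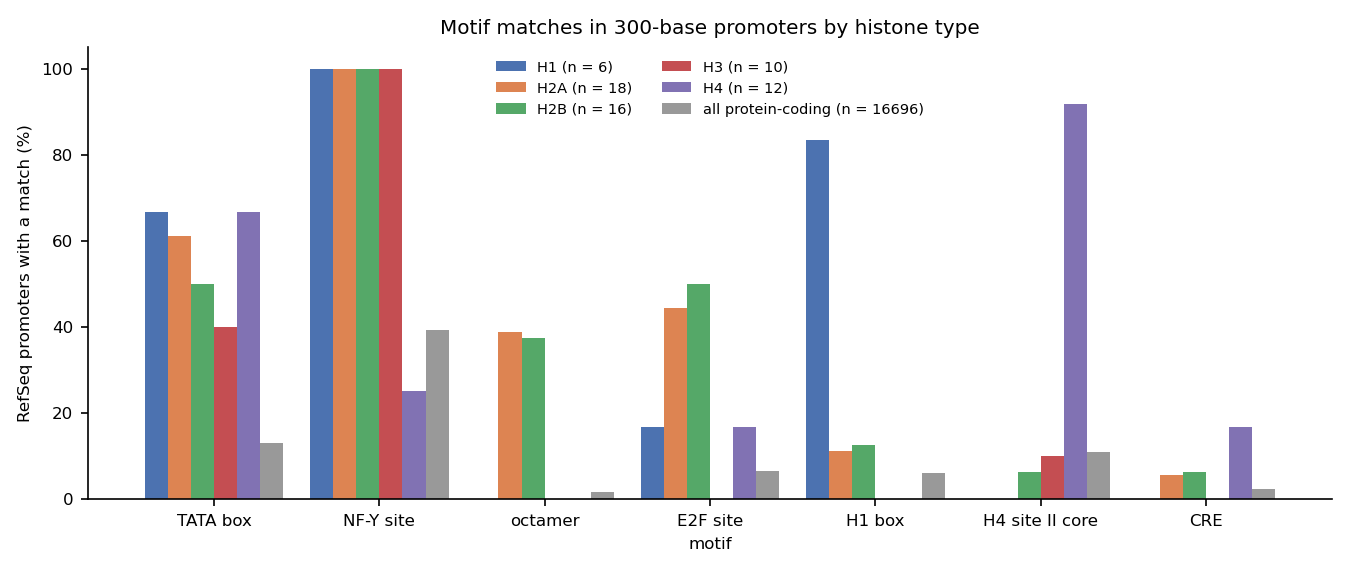
Percentage of RefSeq promoters of 300 bases with at least 1 match to the named letters on either strand (vertical axis), for members of each histone type and for all protein-coding genes in the table (grey bars). CCAAT is in all H1, H2A, H2B and H3 promoters shown, and GGTCCG (H4 site II core) is in 11 of 12 H4 promoters.

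Member promoters were poorer in G and C than most but not in CpG. Their median GC content was 45.3%, against 56.7% over 16696 promoters, and their median ratio of observed to expected CpG was 0.75 (range 0.25 to 1.31), against 0.60. Open members had a median ratio of 0.73 and members not open 0.79. In the highest of 10 equal classes by this ratio 11 of 11 members were open, where 97.4% of genes were. In the next class 2 of 7 were open, where 94.9% of genes were, and the other 5 were Hist1h1b and the copied genes Hist1h2ao, Hist1h2ap, Hist1h2bq and Hist1h2br. In classes 8, 7, 6 and 5, counted from the lowest, 9 of 10, 4 of 7, 8 of 9 and 12 of 15 were open. The shares of genes there were 94.1%, 90.5%, 87.7% and 73.7%. Those not open in class 7 were the copied genes Hist1h4n, Hist2h3c1 and Hist2h3c2. In classes 4 and 3, 1 of 1 and 2 of 2 were open, where 45.1% and 26.3% of genes were.

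Open DNA was also found away from the annotated starts. Within the blocks, 25 regions open in both libraries lay over 500 bp from any annotated TSS. This was 7.07 per 100 kb of sequence clear of TSSs, against 1.93 per 100 kb over the genome. In replicate 1 alone 54 regions, or 15.3 per 100 kb, stood against 6.99, and in replicate 2 alone 40 regions, or 11.3 per 100 kb, against 3.13. The count of 25 falls to 11 beyond 1000 bp from a TSS and to 9 with hotspots in place of peaks. The third Hist1 block held 15 of them, the first 5, the Hist3 block 3, the Hist2 block 2 and the second Hist1 block 0. These blocks are dense in genes and the genome is not, and the difference was not tested. Among the 25 is the region at the RefSeq start of Hist1h1d. Several others lie inside annotated genes, among them Hist1h2be, Hist1h2bc, Hist1h1c and Hfe.

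Several of the strongest of these regions lay just past the end of a member. Within 500 bp past the RefSeq 3' end and over 500 bp from any start, 9 of 67 members (13.4%) had a region open in both libraries that reached into this window, against 2.69% of 20847 genes. This window was chosen after the regions were seen. Their centres lay 260 to 523 bp past the end (median 368 bp), with median signals of 126 and 48, against 74 and 26 for such regions over all genes. Members are short, so these centres also lay only 707 to 1189 bp past the RefSeq start of the same member. The genes were not matched for length or for the density of genes around them. At 700, 900 and 1000 bp past the RefSeq start, regions open in both libraries covered 8.96%, 13.43% and 7.46% of members. Over all genes they covered 8.39%, 6.13% and 5.35%.

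The 9 members were Hist1h1b, Hist1h1c, Hist1h1d, Hist1h4a, Hist1h4c, Hist1h4h, Hist2h4, Hist1h2bn and Hist3h2ba. In Hist1h1c, Hist1h1d, Hist1h4c and Hist2h4 the region overlaps the GENCODE model of the gene, which runs past the RefSeq end. In the 3 H1 genes among them the region past the end was stronger than the one at the start. Past Hist1h1b (chr13:21779396-21779565) the signals were 131 and 58, where the start had 72 and no peak. Past Hist1h1c (chr13:23739696-23739885) they were 132 and 56, where the start had 118 and 48. Past Hist1h1d (chr13:23556136-23556305) they were 130 and 48, where the RefSeq start had 100 and 33. A region also lay past the RefSeq end of Hist1h1e (chr13:23621136-23621285, 130 and 43), where the start had 114 and 62. It was not counted because it lies within 500 bp of an annotated start of Hist1h2be.

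The core histone genes in this group split by strength. The region past Hist1h4h (chr13:23531676-23531825, 135 and 70) was about as strong as its promoter (130 and 73), and that past Hist3h2ba (chr11:58949576-58949725, 126 and 57) likewise (129 and 57). The region past Hist2h4 (chr3:96262336-96262505, 115 and 44) was lower than its promoter (134 and 80). Those past Hist1h4c (75 and 21), Hist1h2bn (67 and 15) and Hist1h4a (61 and 18) were weaker still. The count rests in part on the distance and the libraries used, with 4 members within 250 bp, 9 from replicate 2 alone and 18 from replicate 1 alone.

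The listed genes outside the clusters that supply or handle histones were all open. The share over all protein-coding genes was 61.0%, but it was 97.4% in the highest of the 10 CpG classes. The lists were not matched for CpG. The 11 replication-independent histone genes, which are expressed outside S phase as well, were open in 11 of 11 cases with median signals of 128 and 57. Among them H3f3b, encoding H3.3, had 144 and 77, H2afz, encoding H2A.Z, had 140 and 75, and the centromeric H3 gene Cenpa had 129 and 42. The 23 genes for histone transcription, mRNA processing and chaperones were open in 23 of 23, with medians of 134 and 65.

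In that list, the S phase coactivator Npat had 139 and 93, the H4 promoter factor Hinfp 143 and 85, the histone locus body protein gene Casp8ap2 140 and 83, and the stem-loop binding protein gene Slbp 130 and 62. The 15 proliferation genes were open in 15 of 15, against 61.0% of all protein-coding genes. Their medians were 124 and 66, with Mki67 among the lowest at 115 and 36. The members' medians of 126 and 54.5 lay close to those of the replication-independent histone genes and below those of the supply genes in both libraries. No test was made between lists.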

How the data were processed

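For each library the authors deposited peaks of 150 bp with a whole-number signal, and hotspots with the −log10 of a q-value, in which 100 marks the strongest class. Each list came, per the deposited notes on the files, from the filtered alignment of 1 biological replicate, on mm10. The aligner, the caller and the meaning of the signal were not given in the sources used here. After 215 and 221 peaks off chromosomes 1 to 19, X and Y and 22 and 24 duplicated positions were dropped, 228203 peaks of replicate 1 and 122593 of replicate 2 remained. Overlapping or touching peaks were merged, and 74833 regions held a peak of each library. All 67 members matched a RefSeq gene, and 0 peaks or hotspots exceeded the chromosome lengths of its assembly. A 32-base word counted as repeated when it occurred more than once, on either strand, in the assembled chromosomes. Percentiles rank the strongest signal within 500 bp of a TSS among genes that have one. The named members are, in each histone type, the highest and lowest open member by mean percentile, all members that were not open, and those that share a region. Other open members that are named, such as Hist3h2a, Hist1h2ab, Hist2h2bb, Hist4h4 and Hist1h1a, and those with a region past the 3' end, were chosen after their values were seen. The members and gene lists were chosen with earlier results of these data known. Overlap, window, word and motif searches were tested on simulated data. No p-value was computed, since there is 1 group. Python 3.11.15, pandas 2.3.3 and numpy 2.4.6 were used. Alternatives varied the window, the start annotation, the peak list, the overlap rule and the library.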

Additional observations from a re-analysis of the deposited data

How the results depend on the processing

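The number of open members stayed between 51 (window of 100 bp) and 55 over 10 alternatives: it was 54 with a single start per gene, with the stronger 50% of each list, with the list of replicate 1 shortened to that of replicate 2 and with a reciprocal overlap of 50%, and 55 with a window of 1000 bp, with hotspots and with RefSeq starts. Leaving out a replicate gave 54 to 55. Over the same alternatives the share of all genes ran from 55.1% to 68.9%. Counts by type were rerun only with the window of 100 bp and with each replicate left out. In these H1 stood at 3 to 4, H2A at 13 to 15 and H3 at 9 to 10, and H2B and H4 kept 15 and 11. Regions within the blocks but away from any start depended on the settings. Their number of 25 became 11 beyond 1000 bp from a TSS and 9 with hotspots. It was 40 to 54 when a replicate was left out, where a region needs a peak in only 1 library. Members with a region past the 3' end went from 9 to 4 within 250 bp and 12 within 1000 bp, and ran from 9 to 18 when a replicate was left out, against 1.54%, 4.50%, 3.96% and 6.12% of genes. Of 37 alternatives 31 left the value within the limits set for a change. The alternatives on RefSeq starts and on the region past the 3' end were added after the data were seen. No paired analysis was possible because there is 1 group. Depth is unknown, so a missing peak in replicate 2, which has fewer peaks, cannot be told from lower depth.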

Other observations

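Some open regions inside the blocks lay neither at a start nor just past an end of a member. The strongest of them, with signals of 113 and 58, lay 719 bp from the start of the H4 gene Hist1h4j (chr13:21734156-21734345). Inside the long GENCODE model of the H2B gene Hist1h2be, 4 regions were open in both libraries. The strongest was at chr13:23585956-23586105 (112 and 54), and the others had 83 and 34, 78 and 23, and 27 and 14. Hist1h2be itself counted as open through regions at the 5' end of this model, chr13:23621136-23621285 (130 and 43) and chr13:23621616-23621805 (112 and 47). Both of these lie inside the GENCODE model of Hist1h1e. A region at chr13:23563196-23563385 (95 and 43) lay 827 bp from the nearest start, upstream of Hist1h3e. In the Hist3 block, whose members are Hist3h2ba and Hist3h2a, a region centred 899 bp past the end of Hist3h2ba (chr11:58950196-58950345) had 96 and 40, and another, centred at -1114 bp from the RefSeq start of Hist3h2a (chr11:58953476-58953665), had 95 and 27. Within Hfe, an iron regulator gene that lies inside the third Hist1 block, the region at chr13:23709856-23710045 was weak (38 and 11).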
